A study of Oryza sativa with 6 samples.

Results

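The roots of 2 rice cultivars, 9311 and HHZ, differed in a set of genes on which reads were counted in 9311 and practically none in HHZ. The set was defined from the raw counts themselves, as the genes with at most 3 counts in each of the 3 HHZ libraries and at least 30 counts in each of the 3 9311 libraries. Of the 36844 genes in the deposited table, 127 met this rule, and Os03g0667300, which also met it, was left out. There were 18361 genes with 30 or more counts in each 9311 library, called genes read in 9311 in what follows, and the members made up 0.692% of them. Because the counts of both cultivars chose the members, their difference between 9311 and HHZ is the definition of the set and is described here without a test.

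The plants of both cultivars were grown in hydroponic culture with 1 mM NH4NO3, first in a growth chamber and later in a greenhouse. At 50 days after germination (DAG) they were kept for 2 days without NH4NO3, then returned to 1 mM NH4NO3 for 3 h before the roots were frozen. There were 3 libraries of each cultivar, both under this same treatment, so no untreated roots enter the comparison. The sources used here do not state how many plants went into a library, and any p-value measures only the spread between these libraries.

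As background, 9311 and HHZ are indica cultivars, while the reads of both were aligned to the genome of the japonica cultivar Nipponbare. Rice cultivars differ in which genes their genomes carry and in the sequence of the genes they share. A gene can therefore show no reads in a cultivar because the gene is missing, because its sequence departs so far from the reference that reads do not align, or because it is not transcribed. With counts alone these states cannot be told apart. In whole roots, fewer cells of a type and less RNA per cell cannot be told apart either.

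The library totals ran from 16622441 to 22646162 counts, and the smallest total belonged to 9311 replicate 3. A count of 3 corresponded to at most 0.138 CPM in HHZ, and a count of 30 to between 1.44 and 1.75 CPM in 9311. CPM here are counts divided by the TMM-scaled size of the library. They were not divided by gene length, so levels of different genes are not ranked as expression. HHZ replicate 3 stood apart: the chi-square of its counts against HHZ replicates 1 and 2, per degree of freedom, was 98.6 and 84.5, while that between HHZ replicates 1 and 2 was 22.3. Without the condition on HHZ replicate 3 the rule gave 138 genes. Of 7 identifiers known as root transcripts, 6 had at least 30 counts in every library, and their summed level lay between 7453 and 11369 CPM. By contrast, 6 identifiers known from green tissue summed to between 2.90 and 5.59 CPM, with none at 30 counts in every library. These lists came from general knowledge, since no table at hand pairs their identifiers with names. For the same reason the members are given by identifier only: none of the 127 was found in the RefSeq gene table.

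The members were counted at very unequal depth in 9311. Their mean CPM ran from 1.91 to 108, with a median of 8.19, and the middle of the set lay between 4.82 and 17.7 CPM. At least 100 counts in every 9311 library were found for 76 members, while 23 had a least count under 50. Together the members took 0.185%, 0.177% and 0.192% of the counts of 9311 replicates 1, 2 and 3. In HHZ the same 127 genes held 24, 14 and 30 counts in replicates 1, 2 and 3, which is 68 counts against 109960 in 9311. After scaling, the summed HHZ level was 0.0517% of the 9311 level.

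**Figure D1:**
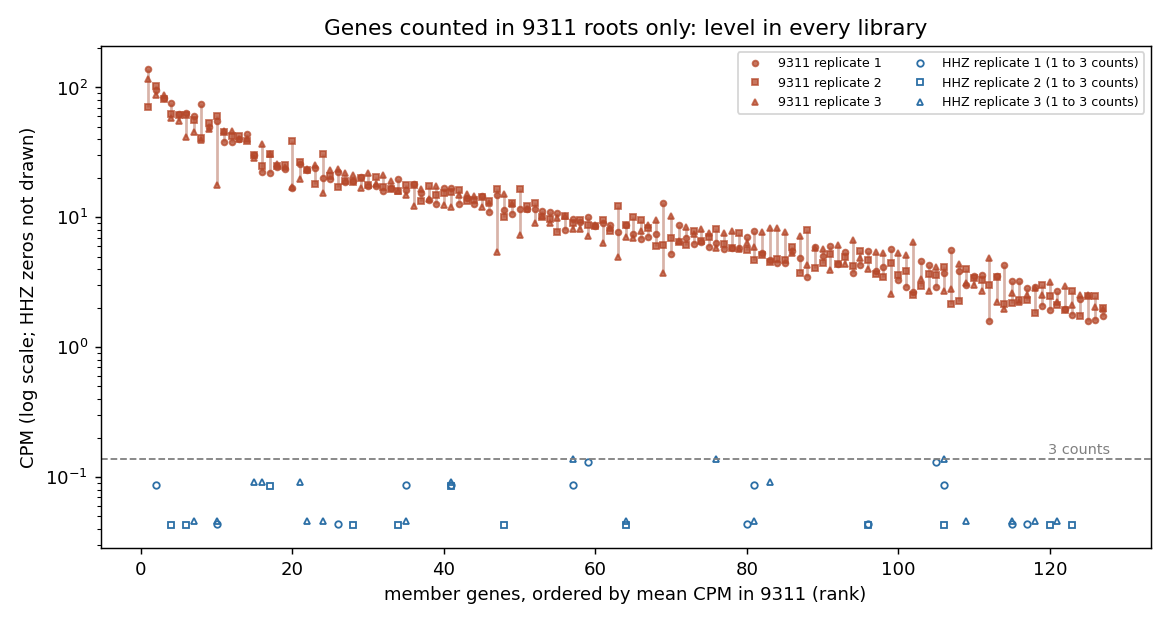
Level of each of the 127 members in CPM (log axis), ordered by the mean over the 9311 libraries. Filled symbols are the 3 libraries of 9311, joined by a line, open symbols are HHZ libraries with 1 to 3 counts, HHZ values of 0 are not drawn, and the dashed line marks 3 counts (0.138 CPM). The 9311 symbols lie well above the line throughout, because the rule asked for it.

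No count at all was found in any HHZ library for 93 of the members (73.2%). Another 16 had a single count in HHZ, 15 had 2 or 3, and 3 had more. For the 93 genes without a HHZ count, the 9311 level was at least 13.8-fold to at least 785-fold the level of 3 counts per HHZ library, with a median bound of 58.2-fold. These bounds follow the number of reads counted in 9311 and give no ranking of the difference. The HHZ counts were spread over 14, 12 and 19 members in replicates 1, 2 and 3. HHZ replicate 3, the library that stood apart, thus held the most, but still less than 1 count per member.

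The gene with the most reads among the members was Os07g0432333, with 2894, 1334 and 1979 counts in 9311 replicates 1, 2 and 3 and 0 in every HHZ library. Its level in 9311 was 108 ± 35.2 CPM (SD, n = 3), at least 785-fold that of 3 counts in HHZ. Replicate 1 was the highest and replicate 2 the lowest. Os01g0538000 followed with 1996, 1941 and 1507 counts, or 95.4 ± 6.98 CPM (SD, n = 3), and 2, 0 and 0 counts in HHZ. The 3 libraries of 9311 were close to each other for this gene. With only 2 counts in HHZ the ratio of 3258 had a counting interval (95%, exact) of 902 to 26911. This interval and the later ones describe counting error only and take no account of the cap that the rule set on HHZ counts.

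Os11g0308100 had 1733, 1544 and 1506 counts in 9311, a level of 84.2 ± 3.53 CPM (SD, n = 3), and no count in HHZ. For Os01g0363500 there were 1568, 1188 and 997 counts in 9311 (65.4 ± 8.94 CPM, SD, n = 3) and 0, 1 and 0 in HHZ. Os06g0135000 gave 1298, 1159 and 951 counts in 9311 (59.7 ± 3.59 CPM, SD, n = 3) and none in HHZ. In all 3 of these genes the order of the libraries in raw counts followed the library totals.

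Os11g0297000 was counted 1314, 1173 and 705 times in 9311, with 1 count in HHZ replicate 2. Os09g0325300 had 1257, 1070 and 775 counts in 9311 and 1 count in HHZ replicate 3. Os04g0415401 had 1030, 1006 and 821 counts and none in HHZ. These lay at 55.4 ± 12.3, 54.0 ± 7.82 and 50.2 ± 2.49 CPM (SD, n = 3) in 9311, and Os04g0415401 varied least among them. Os07g0429700, at 51.4 ± 19.8 CPM (SD, n = 3), is described with its neighbours.

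Os04g0115700 was the least even of the 10 members with the most reads. It had 1137 and 1139 counts in 9311 replicates 1 and 2 but 301 in replicate 3, and 1, 0 and 1 counts in HHZ. The highest 9311 library was 3.40 times the lowest after scaling, a coefficient of variation of 52.3%. Even the lowest 9311 library was far above HHZ, as the rule requires.

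Variation among the 9311 libraries was not used by the rule, beyond the least count. The median coefficient of variation of the members was 16.4%, against 13.3% over all genes read in 9311. Between 4.82 and 17.7 CPM, the middle range of the members, the medians were 15.5% for 63 members and 15.2% for all 5730 genes. The highest library was at least 2 times the lowest for 12 members (9.45%), against 8.95% of all genes read in 9311. No library was high or low throughout: replicates 1, 2 and 3 were the highest for 41, 37 and 49 members and the lowest for 44, 38 and 45.

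The most variable member was Os07g0430501, with 267, 116 and 64 counts in 9311 replicates 1, 2 and 3 (coefficient of variation 62.5%). Os10g0166300 came next, with 55, 48 and 110 counts (57.5%). The former was high in replicate 1 and the latter in replicate 3. The least variable was Os03g0708250, with 485, 442 and 402 counts and 1 count in HHZ replicate 3, which scaled to 23.4 ± 0.138 CPM (SD, n = 3) in 9311. Os09g0327800 (178, 162 and 149 counts) and Os06g0118600 (838, 804 and 691 counts) were nearly as even, with coefficients of variation of 1.20% and 2.68%.

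In 3 members the HHZ counts summed to 5 or 6, and in no other to more than 3. Os11g0514400 had 2, 1 and 3 counts in HHZ against 78, 79 and 46 in 9311, a ratio of 40.5 (95% exact counting interval 18.3 to 112). Os07g0492300 had 2 counts in each HHZ library against 349, 300 and 205 in 9311, a ratio of 170 (78.0 to 466). Os08g0282200, with 2, 0 and 3 counts against 201, 171 and 139, gave a ratio of 122 (52.1 to 378). For these genes the few HHZ reads were seen in more than 1 library. Os01g0571500 had 3 counts in HHZ replicate 1 only against 60, 68 and 71 in 9311, and Os07g0654500 had 2, 0 and 1 against 164, 89 and 102.

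Just inside the rule on the side of 9311 lay Os08g0208700 (33, 47 and 43 counts in 9311), Os07g0298700 (49, 33 and 43) and Os02g0538400 (33, 57 and 83), all without a count in HHZ. Just outside lay Os01g0978500 (48, 28 and 34), Os02g0272850 (34, 40 and 28, with 1 count in HHZ replicate 3) and Os05g0157600 (71, 61 and 27, with 3 counts in HHZ replicate 1). In all, 12 members had a least 9311 count from 30 to 39, and 25 genes with at most 3 counts in every HHZ library had one from 20 to 29. On the side of HHZ, 31 genes read in 9311 had a highest HHZ count from 4 to 10, and 5 of these had a highest HHZ count of 4. Among those 5 were Os07g0431160, Os01g0148400 and Os11g0110901, which lay beside or between members and are described with them.

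The members were spread over all 12 chromosomes but not evenly. Chromosome numbers and gene order were read from the identifiers, which were sorted within each chromosome. No coordinates were used. Chromosome 11 carried 23 members, or 2.40% of its genes read in 9311. Chromosomes 7, 8 and 9 carried 16, 14 and 11 members, or 1.15%, 1.20% and 1.12% of such genes. The lowest share was on chromosome 3, with 7 members (0.278%), and chromosome 12 had the fewest, with 4 (0.415%). On the other 6 chromosomes the share lay between 0.414% (chromosome 2) and 0.654% (chromosome 10), with 6 to 14 members each. Chromosomes 7, 8, 9 and 11, singled out after their counts were seen, held 50.4% of the members and 24.5% of the genes read in 9311.

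The reciprocal set, genes with 30 or more counts in each HHZ library and 3 or fewer in each library of 9311, numbered 139. It was distributed differently on some chromosomes. Chromosome 7 had 16 members but 2 genes of the reciprocal set, and chromosome 12 had 4 members but 15 of the reciprocal set. On chromosome 11 each set had 23 genes. Chromosomes 8 and 9 had 25 and 11 genes of the reciprocal set, against 14 and 11 members. Its shares were taken of the genes with 30 or more counts in each HHZ library. They were highest on chromosomes 11, 8, 12 and 9, at 2.38%, 2.06%, 1.49% and 1.11%, and 0.142% on chromosome 7. Chromosomes 8, 9 and 11 were thus dense in both sets. The share without any count in the other cultivar was 73.2% for the members and 71.9% for the reciprocal set. These are counts of 2 sets chosen by the same rule, and their difference was not tested.

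**Figure D2:**
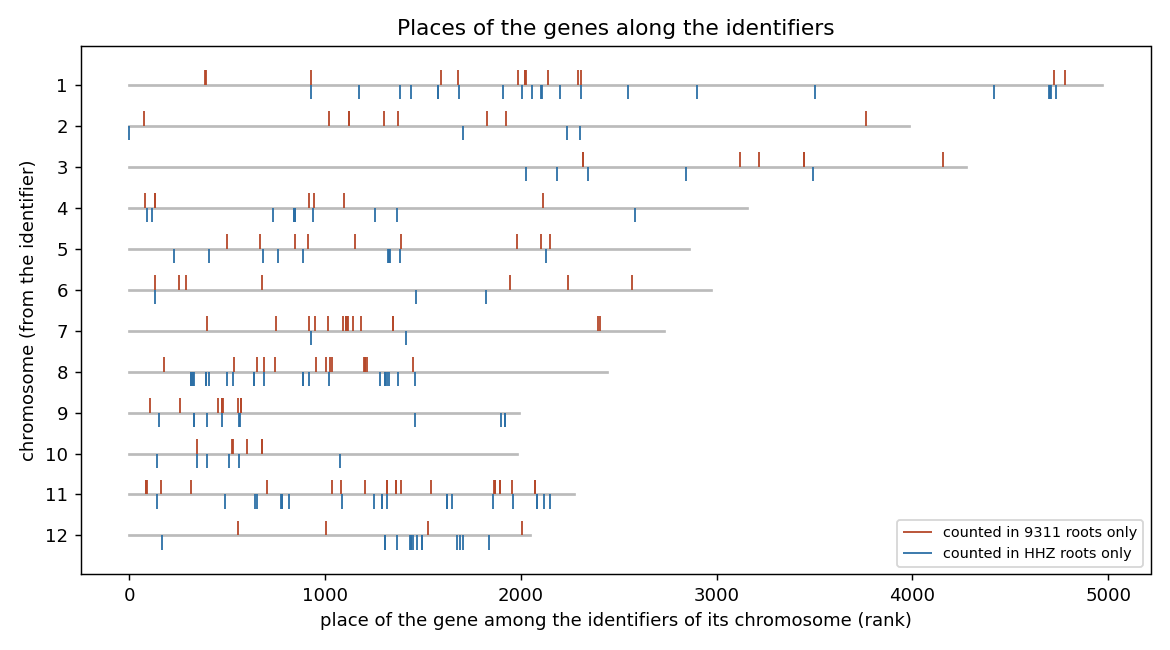
Place of each gene among the sorted identifiers of its chromosome (rank), for the 127 members (upper ticks) and the 139 genes counted in HHZ roots only (lower ticks). Grey lines span the identifiers of each chromosome, and members crowd on chromosomes 7, 8, 9 and 11. The genes counted in HHZ roots only are also frequent on chromosomes 8, 9 and 11.

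The form of the identifiers also differed. An identifier that did not end in 00 was found for 21 members (16.5%), against 5.80% of the genes read in 9311. In the band from 4.82 to 17.7 CPM the shares were 17.5% (11 of 63 members) and 8.03%. Over all identifiers of numbered chromosomes in the table, counted or not, the share was 17.9%, and in the reciprocal set it was 22.3%. What the ending stands for is not given in the sources used here.

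Members lay beside one another. Of the 127, 29 (22.8%) stood in 12 runs of consecutive identifiers with no other gene between them, which made 17 pairs of direct neighbours. The reciprocal set did so too: 32 of its 139 genes stood in 15 such runs, also with 17 pairs. Its longest run held 3 genes, against 5 for the members. With up to 5 other genes allowed between members there were 18 runs with 45 members (35.4%), and 82 members stood in no run. When 361 windows of up to 100 consecutive identifiers were cut, the mean was 0.352 members per window. Within them, 282 windows had no member, 52 had 1, 17 had 2, and 10 had 3 or more. Those 10 windows held 41 members, and the fullest held 6.

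The longest run was on chromosome 9 and held 5 consecutive genes, all without a single count in HHZ. Os09g0327800 had 178, 162 and 149 counts in 9311 replicates 1, 2 and 3. Os09g0328066 had 119, 118 and 129. Os09g0328600 had 68, 68 and 91. After scaling, Os09g0327800 was nearly level, at 8.57, 8.52 and 8.72 CPM in replicates 1, 2 and 3. Os09g0328066 and Os09g0328600 were highest in replicate 3. The coefficients of variation of the 3 genes were 1.20%, 14.5% and 27.3% in this order. Os09g0328800 had 89, 105 and 83 counts, and Os09g0328900 had 117, 41 and 48, with replicate 1 the highest of the last gene.

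The genes around this run behaved in mixed ways. Directly before it, Os09g0327600 had 299, 269 and 222 counts in 9311 and 129, 97 and 101 in HHZ, a log2 fold change of 1.53 (adjusted p = 0.00389, quasi-likelihood test of edgeR). One place further, Os09g0327575 was the reverse of a member, with 1, 2 and 1 counts in 9311 and 227, 244 and 218 in HHZ. Os09g0327550, before that, was counted in both cultivars (467, 512 and 445 against 742, 604 and 563, adjusted p = 0.593 in edgeR). After the run, Os09g0329000 had at most 5 counts in any library. Os09g0325300, one of the most read members, lay in the same window of 100 identifiers.

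On chromosome 11, Os11g0111000 (428, 379 and 288 counts in 9311), Os11g0111101 (224, 148 and 168) and Os11g0111200 (118, 85 and 44) formed a run without HHZ counts. Replicate 1 of 9311 was the highest of the 3 libraries for each of them. The gene directly before, Os11g0110901, missed the rule by 1 count, with 224, 151 and 190 counts in 9311 and 0, 0 and 4 in HHZ. Directly after, Os11g0111800 was counted in both cultivars, at 27, 41 and 45 against 37, 23 and 11 (adjusted p = 0.318 in edgeR). Thus 4 neighbouring genes were counted almost only in 9311. A further member, Os11g0123033 (80, 43 and 75 counts in 9311, none in HHZ), also lay among the first 200 identifiers of chromosome 11. In rice the start of chromosome 11 shares near-identical gene copies with the start of chromosome 12, so counts there are uncertain where reads fit more than 1 copy. No member lay among the first 200 identifiers of chromosome 12.

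The run on chromosome 8 consisted of Os08g0363000 (330, 325 and 363 counts in 9311), Os08g0363200 (142, 180 and 135) and Os08g0363800 (340, 336 and 256). The first and second had no HHZ count, and Os08g0363800 had 2, 0 and 1. On both sides the next genes were hardly counted in either cultivar: Os08g0361300 had at most 9 counts and Os08g0363900 at most 7. The nearest tested genes, Os08g0361000 (288, 289 and 288 against 318, 408 and 328) and Os08g0364500 (42, 35 and 58 against 62, 71 and 67), were read in both cultivars, with adjusted p = 0.966 and 0.639 in edgeR.

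Chromosome 7 held the member with the most reads within a looser run. Os07g0429700 (1542, 774 and 670 counts in 9311) and Os07g0430501 (267, 116 and 64) were direct neighbours. Next to them was Os07g0431160, with 2390, 1427 and 1566 counts in 9311 and 0, 4 and 0 in HHZ, outside the rule by 1 count. Os07g0432333 (2894, 1334 and 1979) and Os07g0434125 (145, 117 and 144) followed. All but Os07g0434125 were highest in 9311 replicate 1, also after scaling. Among the genes in between, Os07g0432100, Os07g0432201, Os07g0432566 and Os07g0434100 had at most 2 counts in any library. Os07g0432800 was read in both cultivars, at 57, 71 and 62 against 64, 65 and 84 (adjusted p = 0.861 in edgeR). A gene read in both cultivars thus lay inside the run. Os07g0442000 (156, 114 and 162) and Os07g0454200 (349, 315 and 323), both without HHZ counts, stood in the same window of 100 identifiers, 1 of the 2 windows with 6 members.

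On chromosome 1, Os01g0148100 had 628, 579 and 487 counts in 9311 and 0, 0 and 2 in HHZ, and Os01g0148700 had 797, 860 and 790 in 9311 and none in HHZ. They enclosed 3 other genes. Of these, Os01g0148200 had no counts, and Os01g0148400 had 256, 231 and 234 counts in 9311 against 0, 4 and 1 in HHZ. Os01g0148500 had 31, 152 and 0 counts in 9311 replicates 1, 2 and 3 and none in HHZ, so it had no count in 1 library of 9311 and did not meet the rule. The second tested gene after Os01g0148700 was Os01g0149400, which differed in the opposite direction, with 38, 53 and 58 counts in 9311 and 813, 940 and 827 in HHZ (log2 fold change -3.83, adjusted p = 0.000379 in edgeR).

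**Figure D3:**
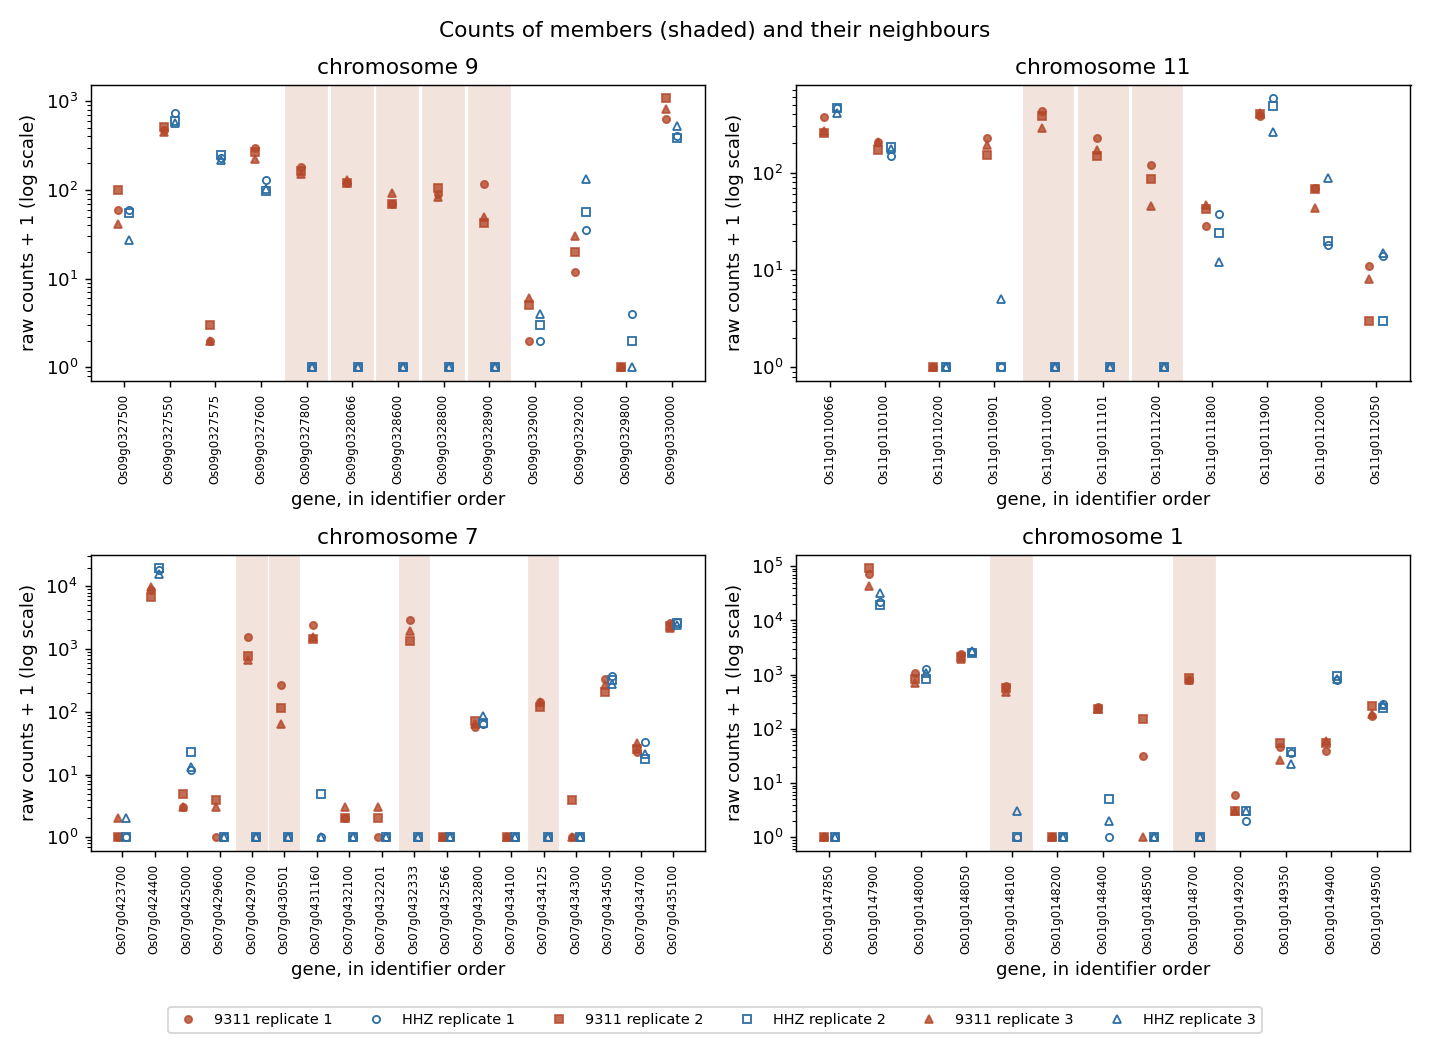
Raw counts plus 1 (log axis) of members (shaded) and of 4 identifiers on either side, in identifier order, for 4 loci on chromosomes 9, 11, 7 and 1. Filled symbols are 9311 libraries and open symbols HHZ libraries, and in each panel genes read in both cultivars lie close to members with 0 in HHZ.

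The other runs of direct neighbours were pairs. On chromosome 4, Os04g0127100 (72, 153 and 74 counts in 9311) and Os04g0127200 (352, 731 and 293) were both highest in 9311 replicate 2 and had no HHZ counts. On chromosome 11, Os11g0623700 (98, 87 and 142) and Os11g0623800 (101, 71 and 124) were both highest in replicate 3, and only the first had counts in HHZ, 2 in replicate 3. Also on chromosome 11, Os11g0485900 (187, 182 and 108) stood next to Os11g0486000 (285, 332 and 235), both without HHZ counts, and the first was highest in replicate 2, as was the second.

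Os01g0547500 (146, 107 and 108 counts in 9311, 1 in HHZ replicate 1) and Os01g0547600 (159, 231 and 85) differed in their highest library. Os03g0754200 (240, 246 and 154) and Os03g0754300 (73, 65 and 52), like Os09g0358000 (364, 388 and 310) and Os09g0358100 (125, 100 and 67), had no HHZ counts. Os07g0492500, next to Os07g0492300, had 394, 355 and 361 counts in 9311 and 1 in HHZ. Thus single HHZ counts also occurred inside runs. Of the 17 pairs of direct neighbours, longer runs included, 9 shared the highest 9311 library and 8 the lowest. Over all members, replicates 1, 2 and 3 were the highest for 41, 37 and 49, so some pairs share a library in any case. Whether neighbours shared it more often than other members was not tested.

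On chromosome 11, 2 windows of 100 identifiers held 5 members each. The first held Os11g0485900 and Os11g0486000 together with Os11g0501500 (307, 314 and 93 counts in 9311), Os11g0503400 (208, 167 and 123, with 3 counts in HHZ replicate 1) and Os11g0514400. The second held Os11g0617700 (241, 313 and 126), the pair Os11g0618300 (90, 41 and 34) and Os11g0618500 (115, 113 and 91), and the pair Os11g0623700 and Os11g0623800.

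The genes next to members were not chosen by the rule, and their difference between the cultivars was read from the edgeR fit over all genes. Of 22554 genes tested, 6.51% had an adjusted p under 0.05, 3.25% higher in 9311 and 3.26% higher in HHZ. All 127 members were among those higher in 9311 and had libraries that did not overlap, as did 13.0% of all tested genes in that direction. The rule brings this about, and nothing is read from it. The nearest tested gene on each side of every member, members left out, gave 210 flanking genes. Of these, 60 (28.6%) were differentially expressed, 34 (16.2%) higher in 9311 and 26 (12.4%) higher in HHZ. Over the 22216 tested genes that were neither members nor flanking, 5.76% were differentially expressed. At least 1 differentially expressed flanking gene stood beside 54 of the members. For 89 flanking genes all libraries of one cultivar lay above all of the other (42.4%), against 27.2% of all genes tested.

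The count of 60 depended on the libraries. Without HHZ replicate 1 it was 43, against 4.01% of all genes, and those higher in HHZ went from 26 to 17, while the share over all genes went from 3.26% to 1.98%. Without 9311 replicate 1 or 2 it was 38, without HHZ replicate 2 it was 37, and without HHZ replicate 3, the library that stood apart, it was 68, while the share over all genes was 3.54%, 3.35%, 3.32% and 11.9% in these fits. Flanking genes were counted less deeply than the others, with a median of 7.91 CPM over the 6 libraries against 14.2 CPM, and the part of depth in the share of calls was not tested. Without chromosome 11, an alternative added after the values were seen, 48 of 177 flanking genes (27.1%) were called, against 6.03% of all tested genes outside it.

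The share of calls fell with distance from the members. In the order of tested genes, 28.6% of the non-members directly beside a member were differentially expressed, 18.5% at the second place, 14.4% at the third place, and 10.3% at places 6 to 10. From place 21 to 50 it was 8.44%, and beyond place 100 it was 3.62%. Over all genes tested, the members included, it was 6.51%, and over those neither members nor flanking it was 5.76%. Calls in both directions were more frequent beside members than far from them: 16.2% were higher in 9311 and 12.4% higher in HHZ directly beside a member, and 1.78% and 1.85% beyond place 100. The median size of the log2 fold change, called or not, was 0.56 directly beside members and 0.24 beyond place 100. Places near members lie more often on chromosomes rich in members, which this profile does not separate. Depth, which was lower for flanking genes, was not separated either, for the shares or for the size of the fold change.

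**Figure D4:**
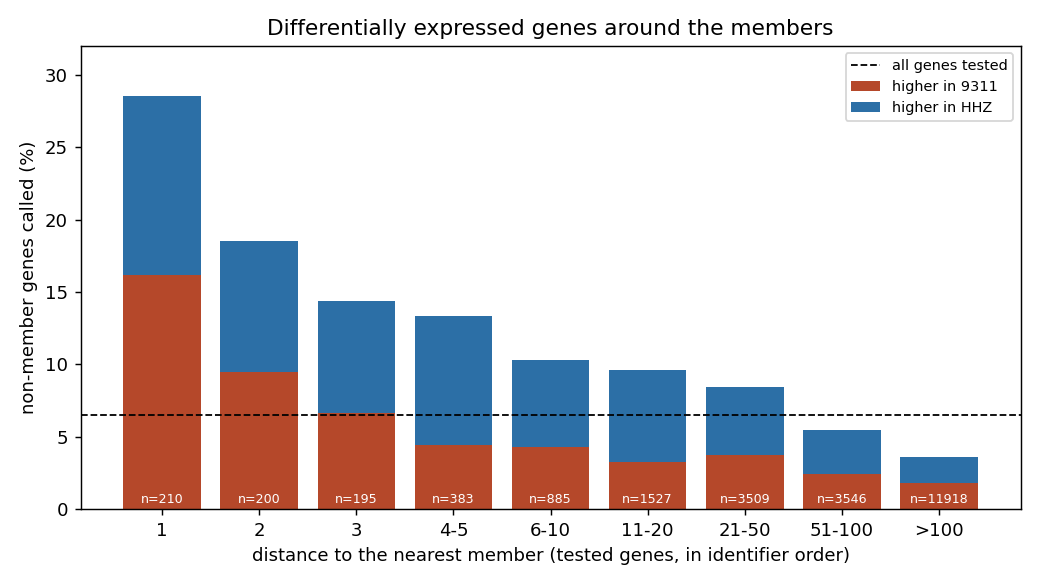
Share of tested non-member genes with an adjusted p under 0.05 in edgeR (percent), by distance in tested genes to the nearest member, split into higher in 9311 and higher in HHZ, with the number of genes (n) in each bar. The dashed line is the 6.51% of all genes tested, which includes the members, and the bars fall from 28.6% at distance 1 to 3.62% beyond 100.

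Among the 34 flanking genes higher in 9311, 17 had a HHZ mean under 10% of the 9311 mean. This cut is looser than the rule, which allowed at most 3 counts in a HHZ library. Os11g0616900, 1 of the 17, had 116, 110 and 98 counts in HHZ replicates 1, 2 and 3. The examples that follow were chosen after their values were seen, and beside means that no other tested gene lay in between. Os07g0278866, beside the member Os07g0277600 (293, 253 and 260 counts in 9311), had 830, 800 and 669 counts in 9311 and 60, 53 and 53 in HHZ, a difference of 4.05 ± 0.128 (standard error) on the log2 scale with adjusted p = 0.000127 in edgeR. Os11g0639600, beside the member Os11g0639300 (231, 190 and 175), had 978, 625 and 528 counts in 9311 and 6, 3 and 0 in HHZ. In both, every HHZ library was far below every 9311 library. Reads of Os07g0278866 were present in every HHZ library, while Os11g0639600 had few and none in HHZ replicate 3. Os08g0185300, beside the member Os08g0184300 (242, 232 and 197), had 242, 214 and 248 counts against 5, 1 and 4. Between the members Os11g0617700 and Os11g0618300, Os11g0617800 had 27, 46 and 51 counts in 9311 and none in HHZ, and missed the rule by its least 9311 count.

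In the opposite direction, 14 of the 26 flanking genes higher in HHZ had a 9311 mean under 10% of the HHZ mean, and 6 belonged to the reciprocal set (2.86% of the flanking genes, where 0.616% of all genes tested belong to it). Os08g0182400 had 2, 1 and 1 counts in 9311 and 901, 870 and 805 in HHZ, on the other side of Os08g0184300 from Os08g0185300. This member thus stood between a gene read almost only in HHZ and one read almost only in 9311. Os11g0485500, beside the pair Os11g0485900 and Os11g0486000, had 0 counts in 9311 and 167, 296 and 287 in HHZ. Os06g0118301, beside Os06g0118600, had 0 counts in 9311 and 140, 154 and 243 in HHZ. The remaining genes of this kind, Os01g0601700, Os08g0211025 and Os10g0165400, stood beside Os01g0602200, Os08g0208700 and Os10g0166300 and had 45 to 87 counts in the HHZ libraries and at most 1 in any library of 9311.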

How the data were processed

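RNA from roots of 9311 and HHZ (3 libraries each) was sequenced as paired reads. The authors trimmed adaptors, aligned the reads with STAR (2.5.3a per the labels, another release in the paper's text) against IRGSP-1.0, using an Ensembl Plants annotation. They deposited the raw count of each gene and library, neither normalized nor pooled. STAR counts only reads that align to 1 place. Its strand setting and the annotation release are not given in the sources used here, so counts of overlapping, antisense and near-identical genes are uncertain.

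The difference between cultivars was fitted over the whole table in R 4.3.3 using edgeR 4.0.16 (TMM scaling, filterByExpr at a minimum count of 10, quasi-likelihood test, Benjamini-Hochberg adjustment over 22554 genes, threshold 0.05, cultivar as the only term). The alternatives were DESeq2 1.42.0, other normalizations, no filter, other thresholds of the rule, other gene orders and gaps, the replicate number as a block and each library left out in turn. The standard error of an edgeR log2 fold change was its absolute value divided by the square root of the quasi-likelihood F statistic. The functions were tested on simulated data. Counting intervals (95%, exact) and bounds against 3 counts per library cover counting error only. The rule capped the HHZ counts of the members, and the intervals take no account of that choice.

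Named were the 10 members with the most reads, runs of 3 or more, the genes nearest the thresholds, the most and least variable members and those with the most HHZ counts. Further genes were named after their values were seen. The members and lists were chosen with earlier results of these data known. Symbols, gene lengths, coordinates and sequences were not used here, because just 1 of the count table's identifiers occurs among the 39387 genes of the RefSeq table (assembly ASM3414082v1).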

Additional observations from a re-analysis of the deposited data

How the results depend on the processing

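The rule chose the members on these counts, so that their calls are no result: all 127 had an adjusted p under 0.05 with DESeq2 (11.2% of all genes), the other normalizations (6.43% and 6.49%) and no filter (4.95%), 125 to 127 when a library was left out (3.32% to 11.9%), and 72 with the replicate block (2.08%). The block moved the flanking genes called from 60 to 25 (17 higher in 9311 and 8 higher in HHZ). Over all genes it called 1.04% higher in 9311 and 1.05% higher in HHZ. Replicate numbers did not pair the libraries, since deviations from the group means correlated at -0.117, 0.0846 and -0.126 between libraries with the same number, and no library correlated best with its own number. Leaving out 1 library gave 37 to 68 flanking genes called, 21 to 39 of them higher in 9311 and 15 to 29 higher in HHZ. Over all genes, these fits called 1.68% to 6.93% higher in 9311 and 1.64% to 4.94% higher in HHZ. With DESeq2, 72 of 209 (34.4%) were called against 11.2% of all genes. Alternatives added after seeing the data left 54 of 204 without the genes counted in HHZ only, 48 of 177 without chromosome 11, and 55 of 205 without genes with at most 3 counts in every HHZ library. The shares over all genes beside these were 6.51%, 6.03% (outside chromosome 11) and 6.51%.

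The rule gave 197 genes when 10 counts in each 9311 library were enough, 76 when 100 were asked for, 93 with 0 counts in every HHZ library and 158 with at most 10. Counts scaled with TMM gave 133, and leaving out 1 library, which drops 1 condition of the rule, gave 129 to 140. Members in runs rose from 29 to 45 with up to 5 other genes allowed and to 51 with up to 10, and fell to 11 among members with at least 100 counts. The row order of the table left them at 29. Outside the members, 34 tested genes were followed through the alternatives. These were the genes named and the flanking genes counted in HHZ only or with a HHZ mean under 10% of the 9311 mean. For them, 374 comparisons with an alternative were made. Of these, 342 left call and direction as they were, 29 lost the call (12 of them with the replicate block) and 3 changed the direction of a gene that was not called: the log2 fold change of Os07g0432800 was -0.0093 with library totals only, and that of Os08g0361000 ran from -0.087 to 0.078 when 1 library was left out. The causes were not tested. With 3 libraries a cultivar and no gene lengths, levels of different genes cannot be ranked as expression, and a gene without counts in HHZ may lie under 0.138 CPM there.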
